A study of Mus musculus with 9 samples.

Results

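RAW264.7 cells, a mouse macrophage line, with a stable short hairpin RNA directed at Nfat5 were compared with control cells of the same line. The samples were chosen by their titles, and they are 6 of the 9 arrays of the series: 3 knock-down and 3 control arrays. Knock-down cells had been transfected with the hairpin and received no other treatment that the labels name, and control cells were untreated. The remaining 3 arrays came from NFAT5-decoy cells, which carried oligonucleotides with the binding sequence of the factor. All cells grew in alpha-MEM with serum and antibiotics with no added salt or inflammatory stimulus in the protocol. A cytokine heading in the labels holds the text on knock-down and decoy, and it was not used. The control cells carried no unrelated hairpin, so effects of transfection and of loss of NFAT5 cannot be told apart. The labels do not say whether the knock-down line was 1 clone or a pool, nor whether samples with the same label came from separate cultures. The p-values therefore reflect only how far these samples vary, and that variation may be technical.

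NFAT5, also called TonEBP, is a transcription factor of the Rel family. In hypertonic medium it enters the nucleus and binds the TonE sequence in genes that import or make small osmolytes, such as the betaine transporter gene Slc6a12. In macrophages it also takes part in the response to Toll-like receptor ligands.

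Total RNA was hybridised to Illumina mouse bead arrays with 45281 probes, and a level is given below as the log2 of the normalized intensity. The knock-down arrays were dimmer at the top and more variable than the control arrays. Their upper-quartile intensity was 257, 241 and 209 units on the knock-down arrays and 319, 336 and 330 units on the control arrays. Above background were 21.5% to 27.1% of probes in knock-down samples and 34.1% to 34.9% in control samples. The median SD within a group was 0.221 in the knock-down and 0.0909 in the control (log2, n = 3 each). Array brightness moved with the group, so the 2 cannot be told apart. Of 12 macrophage markers on the array, 6 were above background on all 6 arrays (Csf1r, Spi1, Fcgr3, Tyrobp, Lyz2, Cd14), while Itgam, Fcer1g and Mertk were above it on none. In bulk RNA, fewer cells that express a gene and less RNA per cell cannot be told apart.

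The hairpin target was lower on its brightest probe and not on its next one. The brightest Nfat5 probe read 1428, 1051 and 734 raw units on the knock-down arrays, against 5049, 4591 and 4857 on the control arrays. After normalization its level was 10.38, 10.50 and 10.43 in knock-down cells and 11.58, 11.36 and 11.46 in control cells. All knock-down arrays lay below all control arrays, with a log2 difference of -1.03 ± 0.13 (SE), a 2.04-fold lower level (limma adjusted p = 1.89e-05). The next probe read 596, 489 and 390 raw units in knock-down cells and 752, 685 and 625 in control cells, which is also lower on every knock-down array. Its normalized level was 9.09, 9.24 and 9.34 in knock-down cells and 8.73, 8.55 and 8.45 in control cells, higher without overlap (log2 difference 0.645, limma adjusted p = 0.00153 over all probes). The direction of that probe thus differs between raw and normalized values. Neither direction was particular to the hairpin cells. On the decoy arrays the normalized level of the brightest probe was 11.07, 10.90 and 10.97, between the other groups. The next probe was 9.31, 9.24 and 9.36 there, above all control arrays. The other 2 Nfat5 probes were above background on none of the arrays. Which part of the transcript each probe reads was not used here.

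**Figure D1:**
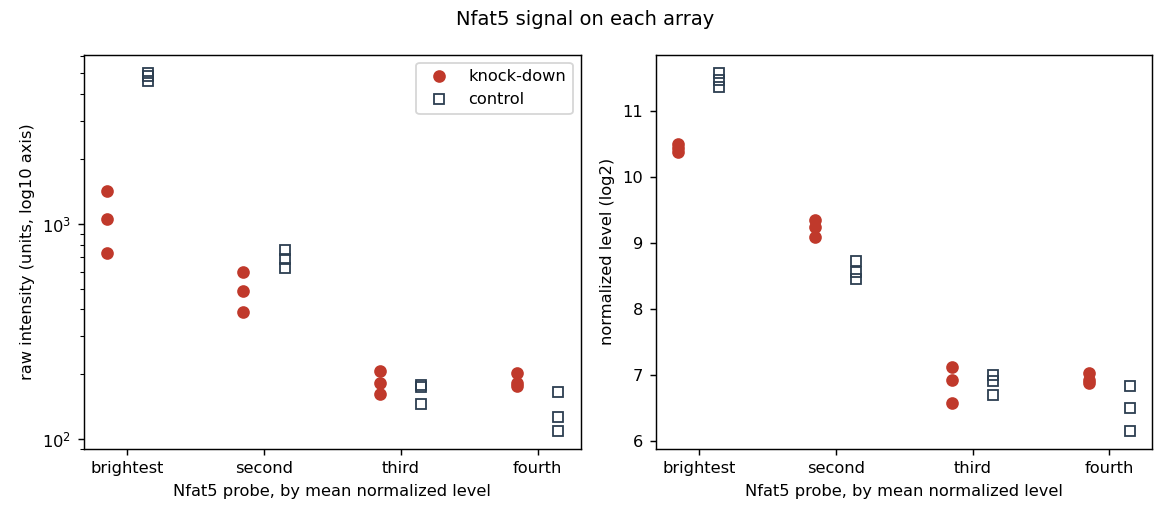
Signal of the 4 Nfat5 probes on each knock-down array (filled circles) and control array (open squares), as raw intensity on a log10 axis (left panel) and as normalized log2 level (right panel). The brightest probe is lower in knock-down cells in both panels, and the second is lower in raw units and higher after normalization.

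Many genes differed, in both directions. A feature is a gene on its brightest probe, or a probe with no single gene symbol, and it was called at an adjusted p below 0.05. Of 18830 features, 8917 (47.4%) were called, 4570 (24.3%) higher and 4347 (23.1%) lower in knock-down than in control cells. A change of at least 2-fold was reached by 792 features that rose and 1183 that fell. The knock-down and control arrays did not overlap for 59.1% of features. Among 8308 genes with a symbol that were above background on at least 3 of the 6 arrays, 32.1% were called higher and 29.5% lower. Among all 13716 tested genes with a symbol the shares were 26.9% and 21.7%. Scaling the arrays to a common median, without quantile normalization, moved the median of all features to -0.435 in log2 and gave 1550 higher and 9162 lower calls. The counts of list members under that scaling are given beside the main ones, which were made after quantile normalization. Of all features called under that scaling 14.5% were higher, so mostly lower calls there do not by themselves set a list apart.

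Probes of the same gene often parted. Of 3065 genes with at least 2 probes above background on at least 3 of the 6 arrays, 695 (22.7%) had probes called in both directions. All such probes were called higher for 245 genes (7.99%) and lower for 289 (9.43%). Brightness was ranked by the mean over all 9 arrays, knock-down arrays included, so the rank of a probe is not independent of its direction. Between the brightest and the next-brightest of these probes, both were called in 1148 genes: 345 with both higher, 332 with both lower, 344 with the brightest higher and the next lower, and 127 the other way round. Ezh2, the histone methyltransferase of Polycomb complex 2, shows the extent. Its brightest probe was 11.51, 11.88 and 11.05 in knock-down cells and 8.37, 8.41 and 8.35 in control cells, while its next probe was 7.25, 7.20 and 6.92 in knock-down cells and 7.64, 7.65 and 7.42 in control cells. Both were called, at 3.11 and -0.448 in log2. Mcm7, a subunit of the replicative helicase, was called at -3.04 on its brightest probe and at 2.04 on the other. Hnrnpa2b1, an RNA-binding protein, was called at 2.65 and at -1.44. Such genes have no single direction here, and genes whose probes all moved one way come first below. How often unrelated probes would move one way was not tested, so agreement of probes is a rule of choice and not proof of a change.

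**Figure D2:**
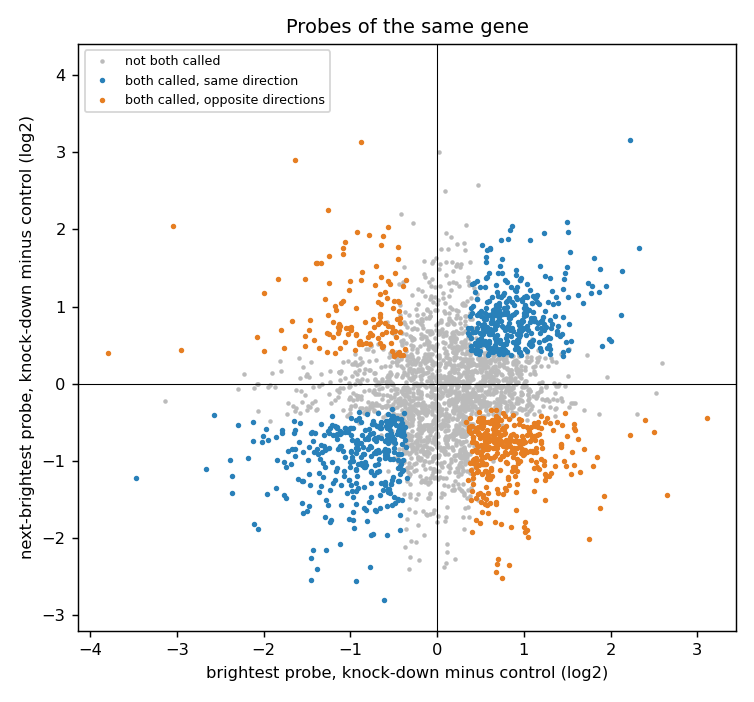
Knock-down minus control difference (log2) of the brightest probe (horizontal axis) and of the next-brightest probe (vertical axis) of each of 3065 genes with at least 2 measured probes. Of the 1148 genes with both probes called, 345 lie at the upper right, 332 at the lower left, 344 at the lower right and 127 at the upper left.

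Among genes that rose on every measured probe, the largest differences were in a translation factor, interferon-inducible genes and regulators of chromatin and the cell cycle. Eef2, the elongation factor that moves the ribosome along mRNA, was 11.96, 13.23 and 12.24 in knock-down cells and 10.23, 10.03 and 10.20 in control cells. It was 5.00-fold higher (log2 difference 2.32 ± 0.33 SE, limma adjusted p = 4.86e-05) on the brightest of 3 probes, and knock-down replicate 2 stood above the other 2 arrays. Usp18, which removes the ubiquitin-like modifier ISG15 and restrains interferon signalling, was 11.90, 11.85 and 12.28 in knock-down cells and 9.84, 9.62 and 9.90 in control cells, on arrays that did not overlap. Its raw signal was higher too, at 4140, 2589 and 2636 units in knock-down cells and 1619, 1474 and 1754 in control cells. Rbbp7, a histone-binding subunit of several chromatin complexes, was 12.46, 13.17 and 12.49 in knock-down cells and 10.75, 10.43 and 10.57 in control cells, with all 4 of its probes called higher. Ccnd2, the D-type cyclin that drives entry into S phase, was 10.58, 10.96 and 10.85 in knock-down cells and 8.81, 8.84 and 8.73 in control cells, a 4.01-fold difference without overlap.

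The other 8 of the 12 largest rises were between 3.20-fold and 4.34-fold. Tspan17, a tetraspanin, rose 4.34-fold. Ube2l6, the conjugating enzyme for ISG15, rose 3.96-fold, and Dhx58, a sensor of viral RNA related to RIG-I, rose 3.68-fold on 3 probes. Rab6a, a small GTPase of the Golgi, rose 3.63-fold on 4 probes. Msn (moesin), which links actin to the plasma membrane, rose 3.44-fold, and Khdrbs1 (Sam68), an RNA-binding protein of splicing and signalling, rose 3.41-fold. Ing3, a subunit of a histone acetyltransferase complex, rose 3.33-fold, and Tent2, a cytoplasmic poly(A) polymerase, 3.20-fold. With arrays scaled to a common median, 10 of the 12 were still called higher and Rab6a (log2 difference 0.708, adjusted p = 0.0721) and Tent2 (0.529, adjusted p = 0.0737) were not.

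Falls on every measured probe were larger, and they covered survival, stress response, replication and chromosome structure. Ndrg2, a gene of the N-myc downstream-regulated family, was 8.24, 7.74 and 7.99 in knock-down cells and 11.34, 11.49 and 11.57 in control cells. This was an 11.1-fold lower level (log2 difference -3.48 ± 0.17 SE, limma adjusted p = 2.97e-09), and only 1 of the 3 knock-down arrays was above background. Bcl2a1d, an anti-apoptotic BCL2 relative, was 10.23, 9.92 and 9.79 in knock-down cells and 12.70, 12.57 and 12.66 in control cells, 6.32-fold lower without overlap. The mouse Bcl2a1 genes are near-identical copies, so which copy the probes read is uncertain. Atf4, the transcription factor of the amino acid and integrated stress response, was 11.42, 11.02 and 10.61 in knock-down cells and 13.55, 13.21 and 13.45 in control cells, 5.22-fold lower. Rfc4, a subunit of the clamp loader of DNA replication, was 8.99, 9.25 and 8.72 in knock-down cells and 11.66, 11.53 and 11.47 in control cells, 5.94-fold lower without overlap.

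Ndufb10, an accessory subunit of respiratory complex I, was 8.13, 8.37 and 8.41 in knock-down cells and 10.52, 10.67 and 10.83 in control cells, 5.14-fold lower without overlap. Emg1, an enzyme that methylates ribosomal RNA, also fell 5.14-fold, and its knock-down arrays were spread from 9.77 to 11.06. Psmd11, a subunit of the proteasome lid, fell 4.91-fold, and Rab5if, a small membrane protein, fell 4.53-fold. Pkig, an inhibitor of protein kinase A, fell 4.37-fold on 3 probes. Chromosome structure genes among the 12 largest falls were Smc5, of the SMC5/6 complex, at 4.33-fold, and Ncapd2, of condensin I, at 4.18-fold on 3 probes. Ints5, of the Integrator complex that processes small nuclear RNAs, fell 4.07-fold. All 12 falls were called under each alternative setting that gave them a value.

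**Figure D3:**
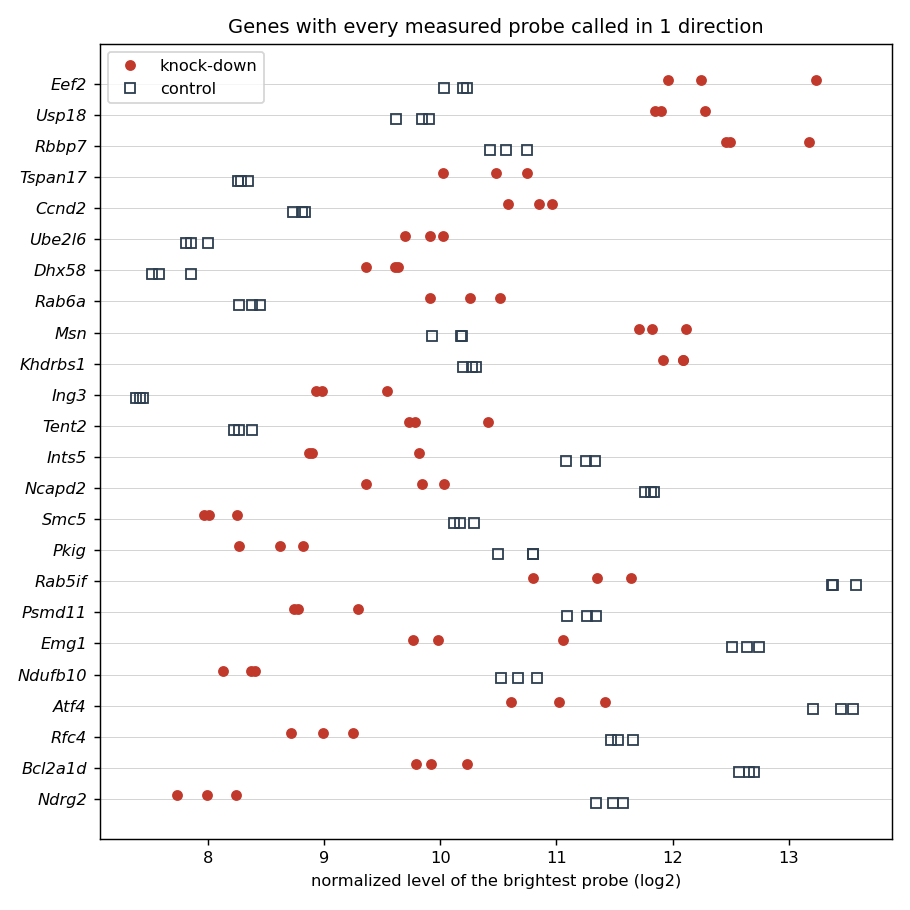
Normalized log2 level of the brightest probe on each knock-down array (filled circles) and control array (open squares) for the 12 largest rises and 12 largest falls among genes with every measured probe called in 1 direction. The groups do not overlap for any of the 24 genes, by the way they were chosen, and the knock-down SD is above the control SD for 22 of them.

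Several lists of mitochondrial energy metabolism held more genes that fell than rose. Mitochondrial DNA encodes core subunits of the respiratory chain, and 5 of its 7 tested genes fell and none rose (median log2 difference -1.32, against 0.0356 over the genes above background). Under median scaling 6 were lower and none higher. COX2, of cytochrome oxidase, was 9.58, 9.40 and 10.00 in knock-down cells and 12.93, 12.91 and 13.44 in control cells, 10.8-fold lower without overlap. ND1, of complex I, was 11.82, 11.29 and 11.26 in knock-down cells and 14.35, 14.41 and 14.70 in control cells, 8.16-fold lower. ATP6, of ATP synthase, was 7.95-fold lower, and ND4, of complex I, had a log2 difference of -1.32. These genes had 1 measured probe each. Tfam, the packaging and transcription factor of mitochondrial DNA, was 10.09, 9.64 and 9.31 in knock-down cells and 11.00, 11.07 and 10.99 in control cells, 2.53-fold lower with both probes called.

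Of 26 tested TCA cycle and related genes, 16 (61.5%) fell and 3 rose (median -0.688), and with arrays scaled to a common median 23 were lower and 1 higher. Without any 1 control array, or without knock-down replicate 3, 1 rose. Mdh2, mitochondrial malate dehydrogenase, was 10.09, 9.16 and 9.48 in knock-down cells and 12.43, 12.37 and 12.54 in control cells, 7.33-fold lower without overlap. Cs, citrate synthase, was 3.69-fold lower. The succinate dehydrogenase subunit genes Sdhd and Sdhb were 5.03-fold and 2.45-fold lower, and fumarase, Fh1, was 2.43-fold lower. Acod1, which makes itaconate from a TCA intermediate in activated macrophages, was 9.51, 8.87 and 9.23 in knock-down cells and 10.82, 10.76 and 10.66 in control cells, 2.92-fold lower with both probes called. Idh1, the cytosolic isocitrate dehydrogenase, was 2.43-fold higher, a rise not called under median scaling (log2 difference 0.0878).

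Among 67 tested nuclear genes of oxidative phosphorylation, 29 (43.3%) fell and 14 (20.9%) rose (median -0.294). Under median scaling 59 were lower and 1 higher. Their 28 other measured probes had a median of -0.777. Cox6c, of cytochrome oxidase, was 4.96-fold lower. Without control replicate 1 or 3 or knock-down replicate 3 the number that rose was 9. Of 33 genes of mitochondrial import and maintenance, 13 fell and 7 rose, and under median scaling 29 were lower and none higher. The carrier chaperone gene Timm10 fell 4.35-fold. Of 72 mitochondrial ribosomal protein genes, 26 (36.1%) rose and 21 (29.2%) fell, near the 32.1% and 29.5% of all genes above background. Under median scaling 1 was higher and 55 were lower.

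**Figure D4:**
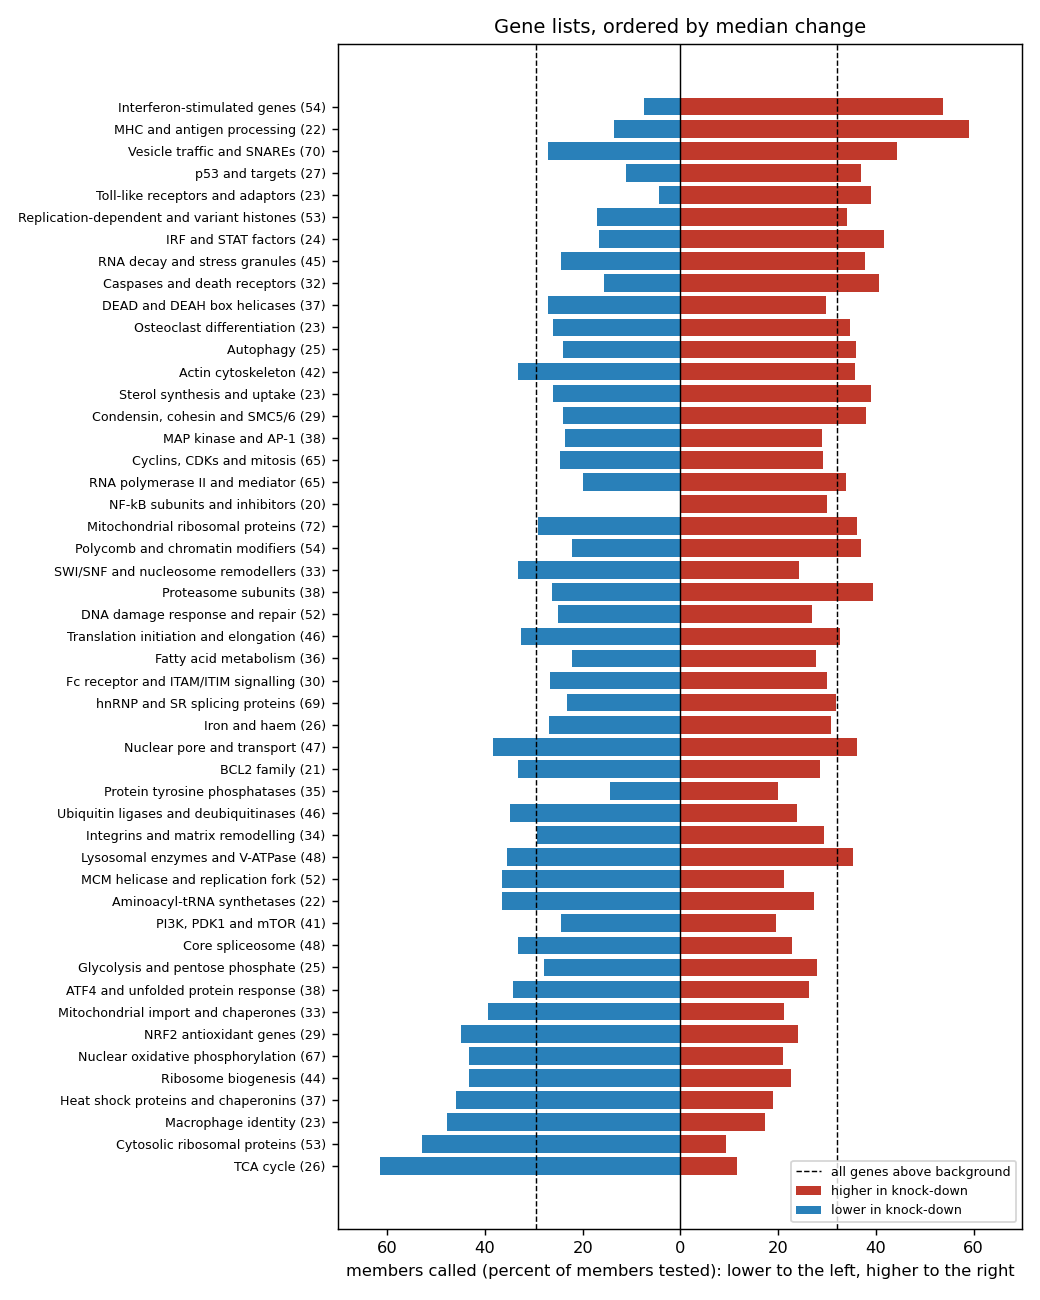
Share of tested members called higher (right of 0) and lower (left of 0) in knock-down against control cells, in percent, for the gene lists with at least 20 tested members, ordered by median change, with the number tested in brackets. Dashed lines mark the shares among all genes above background, 32.1% higher and 29.5% lower, and the lists with the lowest and highest medians are the TCA cycle (61.5% lower) and interferon-stimulated genes (53.7% higher).

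Interferon-stimulated genes, which cells switch on behind type I interferon receptors, were more often higher after quantile normalization. Of 54 tested, 29 (53.7%) rose and 4 fell (median 0.537). Under median scaling 19 were higher and 16 lower, and their median stayed 0.416 above that of all features. In 13 genes with at least 2 measured probes, all probes were called higher in 4 and both ways in 3, and the 18 other probes of the list had a median of 0.0703. Ifi207, a HIN-200 family gene, was 11.09, 11.52 and 11.35 in knock-down cells and 8.61, 8.59 and 8.49 in control cells, 6.74-fold higher without overlap. Ifi207 has close relatives in its gene cluster, so a share of its signal from them is uncertain. Dhx58 was 9.36, 9.61 and 9.64 in knock-down cells and 7.52, 7.86 and 7.58 in control cells, again without overlap. Irf7, the factor that amplifies interferon production, rose 3.24-fold, and Parp14, an ADP-ribosyltransferase, 3.98-fold. Irf9, the DNA-binding subunit of the ISGF3 complex, rose 1.82-fold on both probes after quantile normalization and was lower under median scaling (-0.396 in log2, against -0.435 for all features). Samhd1, which depletes nucleotides and restricts viruses, fell 1.88-fold on its brightest probe, and its next probe was not called (log2 difference -0.161, adjusted p = 0.471).

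Genes of antigen presentation were also more often higher after quantile normalization. Of 22 tested MHC and antigen processing genes, 13 (59.1%) rose and 3 fell (median 0.515), while under median scaling 2 were higher and 9 lower. Of 11 genes with at least 2 measured probes, 1 had all probes called higher and 3 had them called both ways, and the 15 other probes had a median of -0.0774. The non-classical class I gene H2-T23 was 11.75, 12.12 and 11.93 in knock-down cells and 10.71, 10.61 and 10.62 in control cells, 2.44-fold higher without overlap. Calr, a chaperone of class I loading, was 3.32-fold higher. Neither rise was called under median scaling (log2 differences 0.113 and 0.562), and the next probe of Calr was not called (0.213, adjusted p = 0.369). Tapbp (tapasin), which bridges class I molecules to the peptide transporter, was 1.71-fold higher on both probes and -0.24 in log2 under median scaling. Ctss, the protease that trims the class II invariant chain, was 8.24, 8.16 and 8.06 in knock-down cells and 10.05, 10.22 and 10.21 in control cells, 4.01-fold lower without overlap.

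Promoters were searched from 250 bases before to 50 after each annotated start, on both strands. The interferon-stimulated response element (ISRE), searched by its consensus, was found in 3.44% of all 32851 promoters of the table and 3.82% of those of tested genes. It was found in 4.63% of promoters of genes called higher and in 3.03% of those of genes called lower. In the interferon list, 22 of 43 genes with a promoter held it (51.2%), among them 15 of the 25 called higher. The promoters of 2 named genes that hold it are shown to place the element against the start (RefSeq, build GRCm38.p6, 5′ to 3′ on the strand of the gene, the match in capitals). In Ifi207 the match begins at position -41 and in H2-T23, on the opposite strand, at position -124. Both genes were called higher. Other named genes that hold the element include Sirpb1a and Sgk1, also called higher, and Ctss, Cxcl14, Bub1b and Rpl27a, called lower.
Ifi207 promoter, chr1:173741760-173742059, strand -: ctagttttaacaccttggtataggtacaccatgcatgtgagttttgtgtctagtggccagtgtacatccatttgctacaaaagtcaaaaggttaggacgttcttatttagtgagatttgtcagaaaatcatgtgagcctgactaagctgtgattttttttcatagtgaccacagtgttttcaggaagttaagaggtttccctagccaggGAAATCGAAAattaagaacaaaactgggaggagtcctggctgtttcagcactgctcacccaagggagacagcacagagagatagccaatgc
H2-T23 promoter, chr17:36032652-36032951, strand -: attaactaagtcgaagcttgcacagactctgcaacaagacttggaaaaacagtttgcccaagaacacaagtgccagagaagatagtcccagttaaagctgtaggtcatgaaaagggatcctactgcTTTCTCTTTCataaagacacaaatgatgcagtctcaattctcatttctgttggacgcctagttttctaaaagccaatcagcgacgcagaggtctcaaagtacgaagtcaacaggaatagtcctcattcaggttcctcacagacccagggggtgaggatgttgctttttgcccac

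Lists of inflammatory genes held more genes that rose than fell after quantile normalization, and more lower than higher genes under median scaling. Of LPS-response, Toll-like receptor, NF-kB and chemokine genes 52.6%, 39.1%, 30% and 33.3% rose, against 32.1% of all genes above background. The last 2 shares are near that value. The shares that fell were 10.5%, 4.35%, 0% and 26.7%, against 29.5%. Of 19 tested LPS-response cytokines and effectors, 10 rose and 2 fell (median 0.395), and under median scaling 3 were higher and 5 lower. The 7 other measured probes of these genes had a median of -0.743. Il15, a cytokine for NK and memory T cells, rose 2.43-fold and Cd80, a costimulatory ligand, 2.04-fold, and Cd80 was above background on all 3 knock-down arrays and 1 control array. Marcksl1, an actin-binding protein induced by LPS, fell 4.21-fold, against a log2 difference of 0.000543 on its next probe. Among 23 Toll-like receptor genes and adaptors, 9 rose and 1 fell, yet 5 rose without any 1 control array, and under median scaling 1 was higher and 15 lower. Their 18 other probes had a median of -0.0819. Of 20 genes of NF-kB subunits and inhibitors, 6 rose and none fell. Without control replicate 1, 2 or 3 the number that rose was 1, 3 or 2, and without knock-down replicate 2 it was 3, with 1 that fell. Under median scaling none was higher and 17 were lower, and their 6 other probes had a median of -0.282. Of 15 chemokine and receptor genes, 5 rose and 4 fell, and under median scaling 1 was higher and 6 lower. Cxcl14, a chemokine for monocytes and dendritic cells, was 8.99, 8.76 and 8.76 in knock-down cells and 9.95, 9.95 and 10.21 in control cells, 2.29-fold lower on both probes. Cxcl16, a membrane-bound chemokine and scavenger receptor, was 11.58, 11.51 and 11.85 in knock-down cells and 10.52, 10.59 and 10.54 in control cells, 2.14-fold higher on both probes but -0.0954 in log2 under median scaling.

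Macrophage identity genes were more often lower. Of 23 tested, 11 (47.8%) fell and 4 (17.4%) rose (median -0.407), and under median scaling 16 were lower and none higher. In 6 genes with at least 2 measured probes, all probes were called lower in 2 and both ways in 3. The 9 other probes of the list had a median of -0.512. Tyrobp (DAP12), the signalling adaptor of TREM2 and other receptors, was 11.35, 9.91 and 9.69 in knock-down cells and 12.77, 12.84 and 12.55 in control cells. Knock-down replicate 1 lay between the other knock-down arrays and the control arrays, and the difference was 5.30-fold (limma adjusted p = 1.45e-05). Irf8, a lineage factor of monocytes and dendritic cells, was 8.12, 8.10 and 7.95 in knock-down cells and 9.95, 10.20 and 10.09 in control cells, 4.07-fold lower without overlap. Adgre1, a surface receptor used as a macrophage marker, was 1.45-fold lower on both probes, a call lost without control replicate 1 or 2 or knock-down replicate 2 (adjusted p = 0.0684, 0.0716 and 0.0923). Lyz2, one of the 12 markers above, went the other way on its brightest probe, called at 1.12 in log2, and was called at -0.512 on its next probe. Summed over the 12 marker genes, the raw signal was 56525 to 101877 units in knock-down samples and 103110 to 107328 units in control samples. The knock-down arrays were dimmer at the top, so raw sums over bright probes include that difference.

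Of 48 tested lysosomal genes, 17 rose and 17 fell (35.4% each), near the 32.1% and 29.5% of all genes above background. Under median scaling 1 was higher and 33 were lower. Lipa, lysosomal acid lipase, was 2.17-fold lower on both probes and Ctsz, cathepsin Z, 2.27-fold lower on both. Galns, a sulfatase of glycosaminoglycan breakdown, was 7.54, 7.84 and 6.68 in knock-down cells and 8.23, 8.42 and 8.37 in control cells, 1.98-fold lower. Tfe3, a transcription factor for lysosomal genes, was 4.10-fold lower. Atp6ap2, an accessory subunit of the V-ATPase, was 2.02-fold higher on all 4 probes, against a log2 difference of -0.00652 under median scaling.

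Known targets of NFAT5 were called in both directions after quantile normalization, and none was called higher under median scaling. Of 15 tested osmoprotective targets, 4 (26.7%) rose and 4 (26.7%) fell (median -0.198), and under median scaling 7 were lower. Over all tested genes with a symbol 26.9% were called higher and 21.7% lower, so the shares of the targets are near the general ones. Of the 15, 10 were above background on at least 1 array. Without control replicate 2, 2 of the targets were higher and 3 lower. Slc6a12, the betaine and GABA transporter, was 13.95, 13.76 and 13.96 in knock-down cells and 13.34, 13.07 and 13.17 in control cells, 1.62-fold higher without overlap. Its raw signal, however, was 17126, 9888 and 8864 units in knock-down cells and 15953, 14495 and 14950 in control cells, so the groups overlapped before normalization, and the difference was -0.314 in log2 under median scaling. Sgk1, a salt-responsive kinase, was 2.89-fold higher. S100a4, a calcium-binding protein, was 10.41, 10.24 and 10.02 in knock-down cells and 12.80, 12.77 and 12.93 in control cells, 6.12-fold lower without overlap. Akr1b8, an aldose reductase relative, was 2.82-fold lower. Pnpla6, which breaks phosphatidylcholine down to the osmolyte glycerophosphocholine, was 9.20, 9.05 and 8.94 in knock-down cells and 9.80, 9.59 and 9.61 in control cells, 1.52-fold lower with both probes called.

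Among 12 tested inflammatory targets of NFAT5, 3 (25%) rose and 2 (16.7%) fell, near the 26.9% and 21.7% of all tested genes with a symbol. Under median scaling none was higher and 6 were lower. Vegfc, a lymphatic growth factor that NFAT5 drives in skin macrophages under high salt, was 2.74-fold higher. Ccl2, a monocyte chemokine, was 6.74, 6.43 and 6.52 in knock-down cells and 7.68, 7.50 and 7.47 in control cells, and no knock-down array was above background, so no fold is given. Of 12 tested genes of the NFAT family and calcineurin, 6 rose and Nfat5 alone fell, and under median scaling none was higher and 7 were lower.

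The TonE consensus, searched in the same windows, was found in 4.96% of all promoters and 4.70% of those of tested genes. It was found in 4.66% of promoters of genes called higher and 4.38% of those called lower, and in 2 of 12 osmoprotective targets with a promoter. Both of these are shown, with Ndufb10 as the one gene among the 24 above that holds a match. They set a target that was higher after quantile normalization, but not under median scaling, beside a target and another gene that were lower. The match begins at position -75 in Slc6a12, at -168 in Pnpla6 and at -151 in Ndufb10, the last 2 on the opposite strand. A match describes these letters and not binding.
Slc6a12 promoter, chr6:121342324-121342623, strand +: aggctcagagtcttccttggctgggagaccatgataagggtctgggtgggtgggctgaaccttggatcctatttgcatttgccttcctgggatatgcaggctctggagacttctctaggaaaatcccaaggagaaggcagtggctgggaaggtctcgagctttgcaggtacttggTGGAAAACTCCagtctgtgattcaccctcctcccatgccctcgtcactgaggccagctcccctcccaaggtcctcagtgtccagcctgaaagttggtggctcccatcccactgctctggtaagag
Pnpla6 promoter, chr8:3515386-3515685, strand +: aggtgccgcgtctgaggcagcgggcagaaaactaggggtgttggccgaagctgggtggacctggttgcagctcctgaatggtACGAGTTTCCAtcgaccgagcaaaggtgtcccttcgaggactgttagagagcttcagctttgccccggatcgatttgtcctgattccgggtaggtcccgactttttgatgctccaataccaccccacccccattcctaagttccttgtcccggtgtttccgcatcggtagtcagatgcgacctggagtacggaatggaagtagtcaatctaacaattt
Ndufb10 promoter, chr17:24724374-24724673, strand -: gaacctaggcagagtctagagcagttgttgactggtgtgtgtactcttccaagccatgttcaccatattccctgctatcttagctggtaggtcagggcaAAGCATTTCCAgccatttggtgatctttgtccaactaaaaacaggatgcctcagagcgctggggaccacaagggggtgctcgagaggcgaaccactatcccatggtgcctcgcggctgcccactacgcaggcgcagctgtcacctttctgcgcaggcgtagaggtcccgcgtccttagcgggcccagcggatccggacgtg

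Genes for cytosolic ribosomal proteins were more often lower on their brightest probes. Among the 53 tested genes for cytosolic ribosomal proteins, 28 (52.8%) were lower and 5 (9.43%) higher (median -0.457), and under median scaling 41 were lower and none higher. Without any 1 control array, or without knock-down replicate 2, 3 were higher. The 18 other measured probes of these genes had a median of 0.0138. Only 14 of the 53 genes had at least 2 measured probes, with all called lower in 3 and called both ways in 4. The fall over the list was thus read from the brightest probes. Ribosomal protein genes have many processed pseudogenes, and cross-hybridisation between them is uncertain. Rpl27a was 14.47, 14.12 and 13.94 in knock-down cells and 15.39, 15.51 and 15.58 in control cells, at least 2.49-fold lower, since all control arrays were saturated. Rps24 was at least 1.70-fold lower for the same reason, and all 3 probes of each gene fell. In the whole comparison, 53 features called lower were saturated on all 3 control arrays.

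Of 44 ribosome biogenesis genes, 19 (43.2%) fell and 10 rose (median -0.377), and under median scaling 31 were lower and 2 higher. Nop10, which guides pseudouridylation of ribosomal RNA, was 12.92, 11.64 and 11.65 in knock-down cells and 13.85, 13.85 and 13.87 in control cells, 3.45-fold lower on both probes, with knock-down replicate 1 nearest to the control. Nop9 fell 3.96-fold and Polr1b, a subunit of RNA polymerase I, 3.20-fold, whereas the nucleolar GTPase gene Gnl3 rose 2.56-fold. Of 46 translation factor genes, Eef2 among them, 15 rose and 15 fell (32.6% each), near the 32.1% and 29.5% of all genes above background. Under median scaling 1 was higher and 31 were lower. The initiation factor subunits Eif3f and Eif3c fell 1.64-fold and 1.76-fold on both probes. Tars, threonyl-tRNA synthetase, fell 3.29-fold on both probes.

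Of 48 core spliceosome genes 16 (33.3%) fell and 11 (22.9%) rose, and under median scaling 39 were lower and none higher. Of 69 genes of hnRNP and SR splicing proteins 16 (23.2%) fell and 22 (31.9%) rose, and under median scaling 45 were lower and 6 higher. Over all genes above background 29.5% were called lower and 32.1% higher. In the second list, 15 of 37 genes with at least 2 measured probes had them called both ways. The spliceosome proteins Bud31 and Bcas2 fell 3.34-fold and 4.09-fold, and Prpf4, of the U4/U6 particle, rose 2.60-fold. Celf1, a splicing and mRNA decay regulator, was 10.82, 11.26 and 11.11 in knock-down cells and 9.61, 9.53 and 9.67 in control cells, 2.76-fold higher with 3 of 3 probes called. Hnrnpm was 13.35, 13.16 and 12.83 in knock-down cells and 14.11, 14.19 and 14.24 in control cells, 2.10-fold lower with 3 of 3 probes called. The arrays of the groups did not overlap for either gene. Srek1, a splicing regulator with an SR domain, rose 6.19-fold on its 1 measured probe.

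Of 38 genes of ATF4 and the unfolded protein response, 13 (34.2%) fell and 10 (26.3%) rose (median -0.202), against 29.5% and 32.1% of all genes above background. Under median scaling 25 were lower and 1 higher. Among the endoplasmic reticulum chaperones and degradation factors that fell were Hsp90b1 (GRP94) at 3.77-fold, Hyou1 at 2.47-fold, Sel1l at 1.75-fold and Herpud1 at 1.57-fold. Sel1l and Herpud1 fell on both probes. Of 37 heat shock and chaperonin genes, 17 (45.9%) fell and 7 rose (median -0.395), and under median scaling 27 were lower and 1 higher. Tcp1, of the cytosolic chaperonin, fell 2.46-fold on both probes. NRF2 antioxidant genes had 13 of 29 lower and 7 higher, or 20 lower and 2 higher under median scaling, and their 16 other probes had a median of 0.103. Proteasome subunit genes had 15 of 38 higher (39.5%) and 10 lower (26.3%), or none higher and 28 lower under median scaling. Psma7, of the core particle, was 14.30, 14.25 and 14.52 in knock-down cells and 12.90, 12.87 and 13.14 in control cells, 2.62-fold higher on both probes. Psmd14, the deubiquitinase of the lid, was 2.33-fold lower on both probes, like Psmd11 above.

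Of 52 genes of the MCM helicase and replication fork, 19 (36.5%) were lower and 11 (21.2%) higher (median -0.0619), or 7 higher without control replicate 3. Under median scaling 43 were lower and none higher. In 20 of these genes with at least 2 measured probes, all probes were called lower in 3, higher in 1 and both ways in 6. Over all genes above background 29.5% were called lower and 32.1% higher. Pcna, the sliding clamp, was 7.68, 7.94 and 7.80 in knock-down cells and 9.16, 9.18 and 9.46 in control cells, 2.74-fold lower. The nucleotide pool genes Rrm1 and Dut had log2 differences of -0.61 and -0.58, each with both probes called lower. Fancl, the ubiquitin ligase of the Fanconi pathway, was 8.03, 7.69 and 7.74 in knock-down cells and 9.63, 9.74 and 9.93 in control cells, 3.86-fold lower with 4 of 4 probes called. Apex1, a base-excision repair nuclease, was 4.58-fold lower. Cell-cycle genes had 19 of 65 higher (29.2%) and 16 lower (24.6%), or 4 higher and 40 lower under median scaling. Ccne2, the S-phase cyclin E2, rose 4.59-fold, the spindle checkpoint kinase gene Bub1b fell 3.19-fold on both probes and the pocket protein gene Rbl1 (p107) fell 1.92-fold on both.

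Of 27 p53 targets and regulators, 10 (37%) rose and 3 (11.1%) fell, against 32.1% and 29.5% of all genes above background. Under median scaling none was higher and 15 were lower. Without control replicate 2 or 3 or knock-down replicate 2 the number that fell was 1. The death receptor gene Fas was 9.52, 9.84 and 10.18 in knock-down cells and 8.36, 8.37 and 8.28 in control cells, 2.85-fold higher on both probes. Mdm2, the ubiquitin ligase for p53, was 12.33, 12.64 and 12.80 in knock-down cells and 11.32, 11.33 and 11.34 in control cells, 2.39-fold higher on both probes. Neither rise was called under median scaling (log2 differences 0.348 and 0.139). In the BCL2 family 7 of 21 fell (33.3%) and 6 rose (28.6%), shares near those of all genes above background. Under median scaling 13 were lower and none higher. Bcl2a1b fell 9.09-fold, and Mcl1, a short-lived survival protein, was 11.70, 11.44 and 10.88 in knock-down cells and 12.84, 12.64 and 12.94 in control cells, 2.76-fold lower.

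Of 42 actin cytoskeleton genes 15 (35.7%) rose and 14 (33.3%) fell, near the 32.1% and 29.5% of all genes above background. Under median scaling 2 were higher and 25 lower. Pfn1 (profilin) fell 1.47-fold on both probes. Vesicle traffic and SNARE genes had 31 of 70 higher (44.3%) and 19 lower, but 1 higher and 47 lower under median scaling, and their 48 other probes had a median of -0.142. Snx2, a sorting nexin of endosomes, was 13.94, 14.41 and 14.72 in knock-down cells and 13.12, 13.04 and 13.22 in control cells, 2.35-fold higher on 3 probes, and its rise was not called under median scaling (log2 difference 0.206).

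Under median scaling the rises of Gnl3, Prpf4, Celf1, Psma7, Sgk1, Vegfc and Acta2 were not called either. Markers of other cell types stayed near background on most probes. The median raw intensity of an array was 172, 187 and 172 units in knock-down and 150, 158 and 153 units in control samples. Raw sums over probes near background include this difference. Of 9 fibroblast markers Acta2 was above background on all 6 arrays and 7 were above it on none. Acta2 was 3.11-fold higher, and the list summed to 1943 to 2261 raw units in knock-down samples and 1512 to 1624 in control samples. Of 7 neutrophil markers S100a8 was above background on all 6 arrays and the other 6 on none. S100a8 was 9.11, 9.11 and 9.35 in knock-down cells and 7.44, 7.62 and 7.54 in control cells, 3.15-fold higher, and the list summed to 1331 to 1596 units in knock-down and 1084 to 1161 units in control cells. Whether other cells have a part in any result was not tested. Of 7 T and NK cell markers 6 were above background on none, with sums of 1142 to 1217 units in knock-down and 985 to 1078 in control cells. B cell and epithelial markers had 3 of 3 and 4 of 5 above background on none. In knock-down samples their sums were 476 to 548 and 802 to 854 units, and in control samples 481 to 514 and 723 to 759 units.

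To see which differences set the knock-down apart from the other NFAT5-inhibited cells, knock-down arrays were also compared with decoy arrays in the same model. This comparison called 687 of 18830 features (3.65%), 279 higher (1.48%) and 408 lower (2.17%). Of the features called against control, 574 were called against decoy as well. The knock-down was higher than both other groups in 238 of them, lower than both in 315 and between the 2 in 21. Both comparisons use the same knock-down arrays. The 553 features on the same side of both became 1343 without knock-down replicate 1, 358 without replicate 2 and 239 without replicate 3, and 305 to 314 without 1 of the control arrays.

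Genes higher in the knock-down than in both other groups included adhesion and membrane genes. Emp2, a tetraspan membrane protein, was 10.80, 10.52 and 11.08 in knock-down cells, with means of 8.59 in decoy and 8.49 in control cells. It was 2.21 above the decoy and 2.31 above the control in log2 (limma adjusted p = 6.88e-06 and 2.23e-07). Neo1 (neogenin), a receptor for netrins and repulsive guidance molecules, was 9.81, 9.94 and 9.49 in knock-down cells, with means of 7.70 in decoy and 7.35 in control cells, whereas its next probe was called lower against control (log2 difference -0.468). Sirpb1a, an activating receptor of the SIRP family whose members are close copies, was at least 3.08-fold higher than in control cells, where no array was above background. Car5b, a mitochondrial carbonic anhydrase, was 3.87-fold higher than in control cells with 3 of 4 probes called, and 1.01 in log2 above the decoy. Zc3h13, of the RNA methylation complex, was at least 8.51-fold above control and 0.69 in log2 above the decoy. Tbc1d20, a GTPase-activating protein for Rab1, and Myo10, an unconventional myosin of filopodia, were 5.66-fold and 3.99-fold above control, and the next probe of Myo10 was not called (log2 difference 0.31, adjusted p = 0.129).

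Lower than in both other groups were Rcsd1 and several genes met above. Rcsd1, an actin-capping regulator, was 8.07, 7.89 and 7.57 in knock-down cells, with means of 10.01 in decoy and 10.64 in control cells, while its next probe was not called against control (log2 difference -0.0583, adjusted p = 0.839). Against the decoy the log2 difference was -1.10 for Ndrg2 and -1.12 for ND1 (limma adjusted p = 0.00183 and 0.00187). It was -0.82 for ATP6, -0.91 for COX2, -0.98 for Mdh2 and -0.71 for Rfc4 (adjusted p = 0.00987, 0.0222, 0.0165 and 0.0456). For these 6 genes the decoy mean lay between the knock-down and the control mean. For Nfat5 it was -0.54 on the brightest probe (adjusted p = 0.0355). For Acod1 and Cxcl14 it was -2.04 and -2.09 (adjusted p = 2.85e-05 and 6.47e-07), and for both the decoy mean, at 11.25 and 10.92, lay above the control mean of 10.75 and 10.03. Cxcl16 was 1.37 above the decoy (adjusted p = 0.000104).

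**Figure D5:**
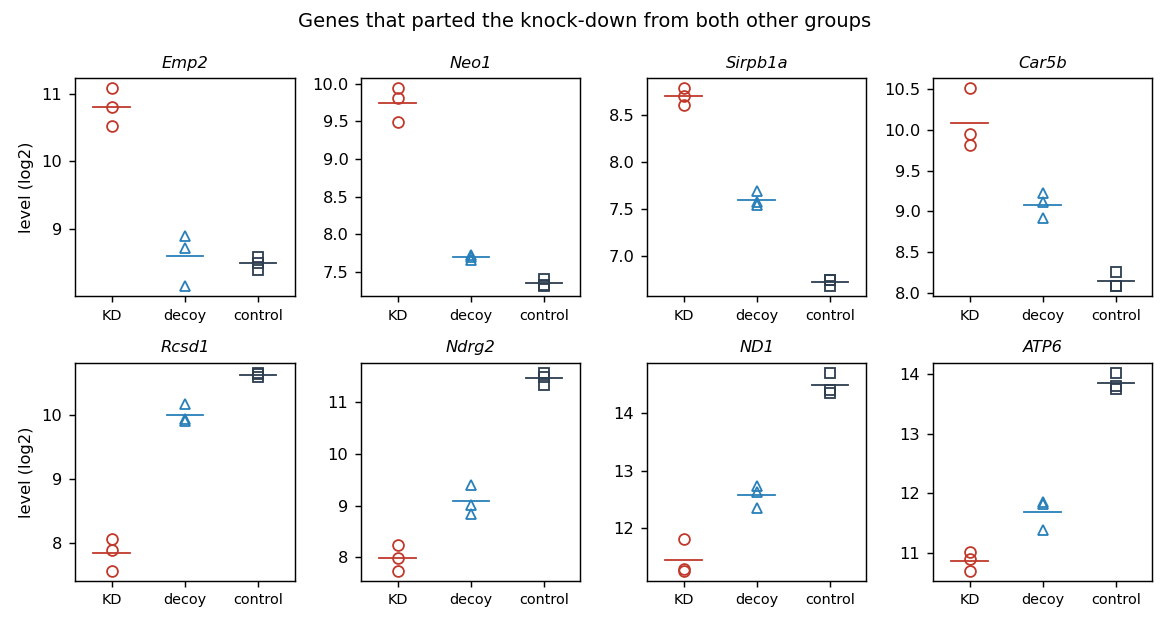
Normalized log2 level on each knock-down (KD, circles), decoy (triangles) and control array (squares) of 8 genes that were called in the same direction against both other groups, with group means as bars. Emp2, Neo1, Sirpb1a and Car5b are highest in the knock-down, and Rcsd1, Ndrg2, ND1 and ATP6 are lowest there.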

How the data were processed

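The authors deposited raw intensity values of 9 Illumina arrays as whole numbers, per the file headers and the values themselves, and a table of log2 values, for which the labels and headers state no normalization method. The submitters' processing notes name R 2.9.1. Detection p-values and control probes were not used here, and 2042 blank lines were dropped.

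Raw intensities were background corrected with normexp (offset 50), log2-transformed and quantile-normalized with limma 3.58.1 under R 4.3.3. Probes brighter than the array median on 3 or more arrays were retained, 27062 out of 45281. In the platform annotation 34885 probes had 1 symbol, 18 had several and 10378 had none. Each gene was read from the retained probe with the highest mean level across all arrays, giving 18830 features, of which 13716 had a symbol. A linear model with 3 group means was fitted by lmFit and eBayes over all 9 arrays, and calls used a Benjamini-Hochberg adjusted p below 0.05, two-sided, over all features, or over all kept probes for single probes. The number of arrays limits the precision.

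The background limit of each array lay 3 SD, estimated below the mode, above the mode of its log2 signals, and 60000 units was the limit for saturation. Folds are "at least" values where the dimmer group was above background on no array or the brighter was saturated on all. For a dim group, each array's level was the larger of the probe's signal and the smallest signal that passed background.

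The genes named are Nfat5, the largest rises and falls among genes whose measured probes agreed and among all called genes, list members of smallest p, and genes called against the decoy as well. Those printed are a part of what this rule takes, and list members with 2 or more probes in 1 direction were added after their values were seen. Other genes the rule takes were left out after their values were seen, among them some whose sign turned, or whose call was lost, under an alternative, so the named genes are steadier than the rule's full set. The comparisons, the 63 gene lists (2267 of 2454 genes on the array) and the rule were chosen with earlier results of these data known. Replicate numbers were not used as pairs in the main fit. Deviations of same-numbered knock-down and control arrays correlated at 0.0149, 0.0311 and 0.00654, and those of differently numbered arrays at -0.0288 to 0.0137. Values this small cannot settle whether the samples were paired. Promoters came from the RefSeq table. The fit was tested on simulated data with equal spread in all groups and few changed genes. Unequal spread and differences in array brightness, both present here, were not part of that test. Alternatives varied scaling, background correction, the authors' log2 values, probe filter and choice, the replicate block, weights, variance trend, arrays in the fit and each array left out.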

Additional observations from a re-analysis of the deposited data

How the results depend on the processing

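Between 3 arrays a group, 1770 called features were above background on none of the 6 arrays, and differences among such dim probes are not measured well. Probe choice and scaling moved most. With the next-brightest kept probe 2498 features were called (1054 higher, 1444 lower), and of 2854 main calls with a value 824 (28.9%) were called the same way and 605 the opposite way. With arrays scaled to a common median 1550 were higher and 9162 lower. Of the main calls, 63.7% were called the same way there and 897 the opposite way. Under that scaling 1602 genes had every measured probe called one way, and 32 features stood on the same side of both other groups. The next-brightest probe gave 90 of these and array weights 304. Leaving out 1 array gave 2864 to 4556 lower calls, 328 to 557 genes with probes one way and 239 to 1343 features on the same side of both. Nfat5 was 0.645 in log2 (adjusted p = 0.0018) on its next-brightest probe and 0.0183 (adjusted p = 0.91) as the mean over its probes, and was called lower under the other settings.

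Of the other genes named, the sign turned with the next-brightest probe for Ezh2 (-0.448), Hnrnpa2b1 (-1.44), Mcm7 (2.04), Neo1 (-0.468) and Marcksl1 (0.000543), and under median scaling for Irf9 (-0.396), Tapbp (-0.24), Cxcl16 (-0.0954), Atp6ap2 (-0.00652) and Slc6a12 (-0.314). The causes were not tested. Of 63 lists, 14 kept the sign of their median, relative to all features, under each of the 18 alternatives that gave a value, and the list encoded by mitochondrial DNA had a value under 17 of them. Without a control array the filter on dim probes also removed features.

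With the replicate number as a block, 8757 features were called and 518 genes had every probe one way, 476 features lay on the same side of both other groups, and Nfat5 stayed at -1.03 (adjusted p = 4.89e-05). The block changed no call of a named gene. The mean over probes and the next-brightest probe give no value for the count of genes with all probes one way, and the fit without decoy arrays gives none against the decoy.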
